A study of Mus musculus with 4 samples.

Results

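The pyruvate dehydrogenase complex was described in mouse hearts by the transcripts of its subunits and of the enzymes that switch it off and on. The genes were taken by name from the table of TPM (transcript abundance corrected for transcript length and library total) and are *Pdha1*, *Pdhb*, *Dlat*, *Dld* and *Pdhx* for the complex, *Pdk1*, *Pdk2* and *Pdk4* for the kinases, and *Pdp1* and *Pdpr* for the phosphatase. They are 10 of the 55401 gene rows of the table. Of these, 9 were among the 10036 genes with a mean of at least 1 TPM that were tested, and *Pdpr* was not.

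The complex sits in the mitochondrial matrix and turns pyruvate into acetyl-CoA, the step that commits carbon from glucose and lactate to oxidation. Its E1 component, made of the alpha and beta chains of *Pdha1* and *Pdhb*, removes carbon dioxide, the E2 component of *Dlat* hands the acetyl group to coenzyme A on a lipoyl arm, and the E3 component of *Dld*, held in place by the E3-binding protein of *Pdhx*, reoxidises that arm. Pyruvate dehydrogenase kinases phosphorylate the E1 alpha chain and switch the complex off, and pyruvate dehydrogenase phosphatases reverse this. In heart muscle *Pdk4* is the kinase gene best known to respond to fasting and to fatty acids.

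The hearts came from C57BL/6N mice aged 8 weeks, 2 wild-type and 2 *Ctcf* +/R567W, with 1 library for each mouse. CTCF is a DNA-binding architectural protein, and the heterozygous mice carried an R567W substitution, made by CRISPR/Cas9 editing, on one constitutive allele, which TPM per gene do not read. Polyadenylated RNA of heart tissue was sequenced, and the sex of the mice is not given in the sources used here. Libraries are named by genotype and replicate number, and values are given in the order wild-type 1, wild-type 2, heterozygous 1, heterozygous 2 unless stated otherwise.

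Read depth cannot be recovered from TPM, and values therefore carry no counting error here. Mitochondrial genome transcripts took between 61.1% and 68.6% of the TPM of a library, and the libraries correlated at 0.966 to 0.981 over the tested genes. The values of each heart were divided by its median-of-ratios factor, between 0.818 and 1.26, and are called scaled TPM. Cardiomyocyte markers summed to 25290, 24725, 21373 and 26173 scaled TPM, so heart muscle was well represented in each. Of these 10 markers 7 had a log2 fold change below 0, and *Myl2* and *Actc1* were lower in both heterozygous hearts. Over all tested genes 50.7% had a log2 fold change below 0. In scaled TPM 23.3% were lower in both heterozygous hearts than in both wild-type hearts. Mural and fibroblast marker sums overlapped between genotypes, with 6 of 6 and 5 of 7 genes below 0. Of the 7 skeletal muscle markers, the myosin genes *Myh1*, *Myh2* and *Myh4* were listed at 0 in all 4 libraries. The others were detected, with *Mylpf* at 1.60, 2.33, 2.67 and 1.96 scaled TPM and *Tnnt3* at 0.809, 0.365, 0.758 and 1.74. *Acta1* was at 81.3, 57.9, 94.4 and 66.1 and *Ckm* at 392, 392, 283 and 403 scaled TPM. Atrial markers summed to 807, 2360, 1921 and 3289, so that wild-type 1 stood apart on the low side, and erythroid markers summed to 930, 987, 965 and 2120, so that heterozygous 2 stood apart on the high side. Endothelial markers summed to 255, 254, 285 and 332, mostly through *Egfl7* (197, 193, 235 and 277), while 5 of the 6 had a log2 fold change below 0. Brown adipocyte markers, nearly all *Cox7a1*, summed to 1096, 1137, 781 and 1070, while *Ucp1* was at 0.101 in wild-type 1 and listed at 0 elsewhere. White adipocyte markers summed to at most 0.680. In heart tissue, fewer cells of a type and less RNA in each cell cannot be told apart.

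All 10 genes were lower in both heterozygous hearts than in both wild-type hearts in TPM as deposited. That separation was common, since 67.8% of all tested genes showed it, and it is therefore not a result about the complex. In scaled TPM 6 of the 9 tested genes were separated with the heterozygous hearts lower (*Pdk4*, *Pdp1*, *Pdha1*, *Pdhb*, *Dlat* and *Pdhx*), against 23.3% of all tested genes. The log2 fold change, heterozygous against wild type on the log2(scaled TPM + 1) scale, was below 0 for 8 of the 9, against 50.7% of all tested genes, and its median was -0.32 against -0.0047 for all tested genes.

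No member passed the threshold of an adjusted p under 0.05 with a fold change over 1.5 in the limma model, in which 0.0199% of all tested genes were called lower. At an unadjusted p under 0.05 there were 2 members, *Pdk4* and *Dlat*, both lower, against 5.71% of all tested genes. The p values rest on these mice alone. Each uses the gene's own spread together with that of other genes, by a limma prior of 4.64 degrees of freedom out of 6.64 in total. With 2 mice in each group an exact permutation test of 1 gene cannot go below p = 0.333 (two-sided).

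**Figure D1:**
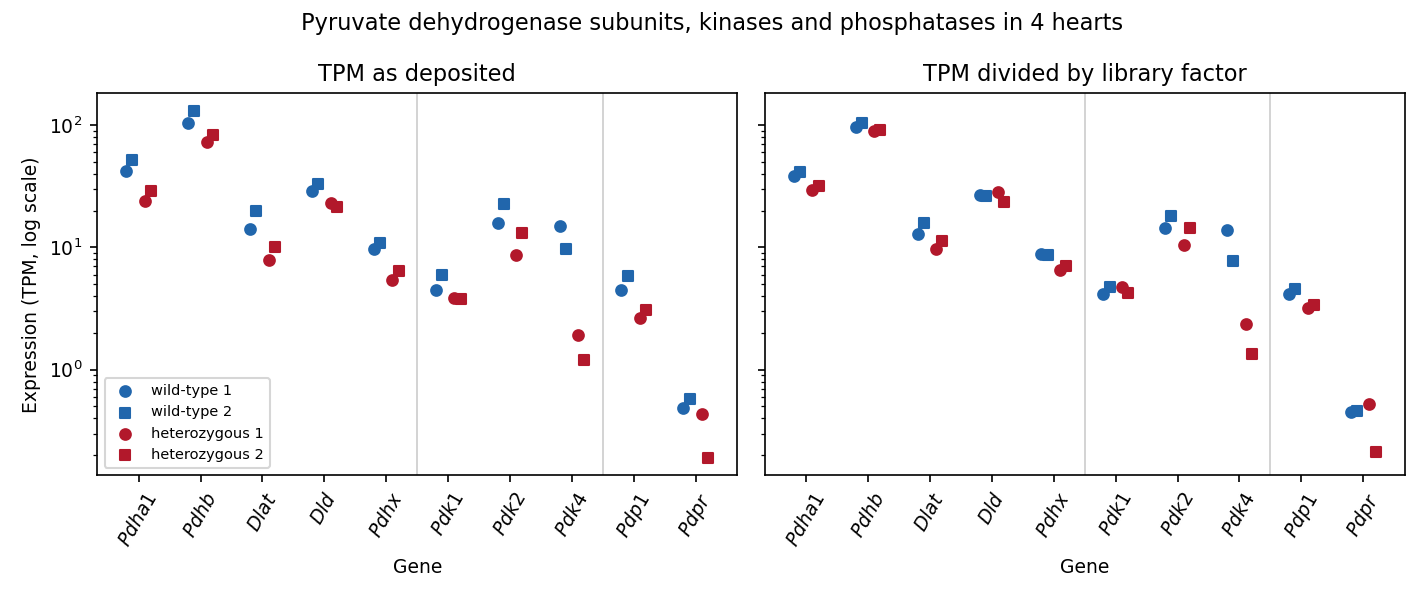
Expression of the 10 genes in each of the 4 hearts, in TPM on a log axis, as deposited on the left and divided by the library factor on the right. Blue points are wild-type and red points heterozygous hearts, circles are replicate 1 and squares replicate 2, and grey lines part the subunits, the kinases and the phosphatase genes. The widest gap between genotypes is that of *Pdk4*, at 13.9 and 7.78 against 2.37 and 1.34 scaled TPM.

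*Pdk4* (ENSMUSG00000019577.6), a kinase of the complex, had the widest difference of the set. It was listed at 15.1 and 9.80 TPM as deposited in the wild-type hearts, compared with 1.94 and 1.21 TPM in the heterozygous hearts. After scaling these were 13.9, 7.78, 2.37 and 1.34. Both heterozygous hearts lay far below both wild-type hearts, and the wild-type hearts themselves differed, with replicate 1 the higher. The means were 10.8 ± 4.30 and 1.86 ± 0.731 scaled TPM (SD, n = 2 each), 5.83-fold lower in the heterozygous hearts, and 7.90-fold lower in TPM as deposited. The log2 fold change was -2.02 ± 0.29 (SE), with a 95% interval from -2.71 to -1.34 and a limma adjusted p of 0.174, so it did not pass over the whole table. The size of the log2 fold change depends on the 1 added before the log, since the heterozygous values are near it. With 0.1 added instead the log2 fold change was -2.47, and with 5 added it was -1.18, outside the interval above. *Pdk4* held place 11 among the largest decreases of the 10036 tested genes and place 12 by unadjusted limma p, 0.00025.

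*Pdk4* was called under some of the other scalings and not under others. With TPM as deposited its log2 fold change was -2.37 (limma adjusted p = 0.0088) and with the mitochondrial genes removed it was -2.62 (limma adjusted p = 0.034), while the median of all tested genes moved to -0.35 and -0.31. Set against those medians, *Pdk4* stood at -2.02 and -2.31. It was not called with quantile normalization (-2.02, limma adjusted p = 0.217). Nor was it called with mitochondrial and numbered *Gm* genes removed (-2.36, limma adjusted p = 0.088). The medians of all tested genes were then -0.0027 and 0.053. Atrial markers differed in the opposite direction, with a log2 fold change above 0 for 6 of 6 and a median of 0.83, and the range of their sum was 807 to 2360 scaled TPM in the wild-type and 1921 to 3289 in the heterozygous hearts. Without wild-type 1, the heart lowest in atrial markers and highest in *Pdk4*, the log2 fold change was -1.64 (limma adjusted p = 0.420). The part of tissue makeup in the *Pdk4* difference was not tested.

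The gene lies on chromosome 6 at 5483351 to 5496309 on the minus strand of GRCm38 (mm10), with 3 annotated transcripts over 11 merged exons. Sequence upstream of the start sites is shown for the 3 tested kinase genes, because the kinases sit on one enzyme yet differed in their values. The bases are those of RefSeq on GRCm38.p6, 5′ to 3′ on the gene's own strand, from the 250 bases before the annotated start and without any base inside the gene model. CG pairs, the sites of DNA methylation in mammals, are in capitals.
Pdk4 chr6:5496310-5496528, minus strand: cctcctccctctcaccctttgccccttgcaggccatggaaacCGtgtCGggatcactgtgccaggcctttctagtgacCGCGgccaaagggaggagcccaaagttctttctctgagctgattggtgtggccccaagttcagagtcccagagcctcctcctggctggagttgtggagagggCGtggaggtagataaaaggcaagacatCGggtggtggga
Pdk2 chr11:95041372-95041621, minus strand: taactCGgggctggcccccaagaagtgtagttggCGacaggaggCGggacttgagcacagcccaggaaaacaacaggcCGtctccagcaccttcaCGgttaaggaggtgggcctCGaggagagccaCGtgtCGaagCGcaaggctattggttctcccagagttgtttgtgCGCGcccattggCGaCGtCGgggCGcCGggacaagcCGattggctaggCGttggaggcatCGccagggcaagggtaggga
Pdk1 chr2:71872974-71873223, plus strand: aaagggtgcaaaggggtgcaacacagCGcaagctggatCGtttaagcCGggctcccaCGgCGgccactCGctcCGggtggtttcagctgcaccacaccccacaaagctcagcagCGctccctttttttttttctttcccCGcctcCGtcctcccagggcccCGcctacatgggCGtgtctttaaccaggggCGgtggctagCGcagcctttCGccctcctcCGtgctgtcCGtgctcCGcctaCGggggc

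The stretch before *Pdk4* was 219 bases long and held 6 CG pairs, while those before *Pdk2* and *Pdk1*, each 250 bases long, held 19 each. Over 32851 RefSeq promoter windows of mouse genes the median was 6 CG pairs and the range from the 10th to the 90th percentile was 1 to 25, counted in the 250 bases before each start, with no correction for the shorter *Pdk4* stretch. A further annotated start of each of the other genes, inside the gene model and not printed, had 2 CG pairs before it for *Pdk1* and 12 for *Pdk2*. The G and C content was 58.9% before *Pdk4*, 62.4% before *Pdk2* and 64.0% before *Pdk1*, against a median of 52.4%. Windows of 300 bases were found for 9 of the 10 genes, all but *Pdp1*, and were searched on both strands for the nuclear receptor half-site AGGTCA, its longer form TCAAGGTCA, the forkhead motif GTAAACA and the CTCF core consensus. These motifs were found in 16.3%, 0.423%, 3.65% and 0.557% of all windows and in none of the members' windows, which says only that these letters are not in these stretches.

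*Pdk2* (ENSMUSG00000038967.13, chromosome 11, 95026258 to 95041354), the kinase expressed in most tissues, was at 14.5, 18.03, 10.6 and 14.6 scaled TPM. Its groups overlapped, heterozygous 2 lying just above wild-type 1. The log2 fold change was -0.36 (95% interval -0.84 to 0.13, limma adjusted p = 0.494), and it was -0.21 without wild-type 2, -0.14 without heterozygous 1 and -0.57 without heterozygous 2. *Pdk1* (ENSMUSG00000006494.11, chromosome 2, 71873224 to 71903858), known as the kinase gene induced by low oxygen, was at 4.16, 4.75, 4.72 and 4.22 scaled TPM. The groups overlapped here too, and the log2 fold change of 0.0043 had an interval from -0.34 to 0.34. Its sign is not fixed, since it was -0.36 in TPM as deposited, where it stood at -0.01 relative to the median of all genes. The remaining kinase gene, *Pdk3*, was listed at 0.44, 0.43, 0.16 and 0.54 TPM as deposited and was too low to be tested.

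The makeup of the kinase transcripts can be read within each library, where no scaling enters. *Pdk4* took 42.1% and 25.2% of the summed TPM of the 4 kinase genes in the wild-type hearts, compared with 13.3% and 6.47% in the heterozygous hearts. The groups did not overlap, and the means were 33.6% ± 12.0 and 9.88% ± 4.82 (SD, n = 2 each), a difference of -23.8 percentage points that was -15.3 without wild-type 1. *Pdk2* took 44.0%, 58.4%, 59.2% and 70.3%, so that it was the leading kinase transcript in each library, though in wild-type 1 it led *Pdk4* only narrowly. The ratio of *Pdk4* to *Pdk2* was 0.956, 0.431, 0.225 and 0.092. *Pdk1* took 12.6%, 15.4%, 26.4% and 20.4%, a higher share in both heterozygous hearts, while its own scaled level overlapped between genotypes.

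**Figure D2:**
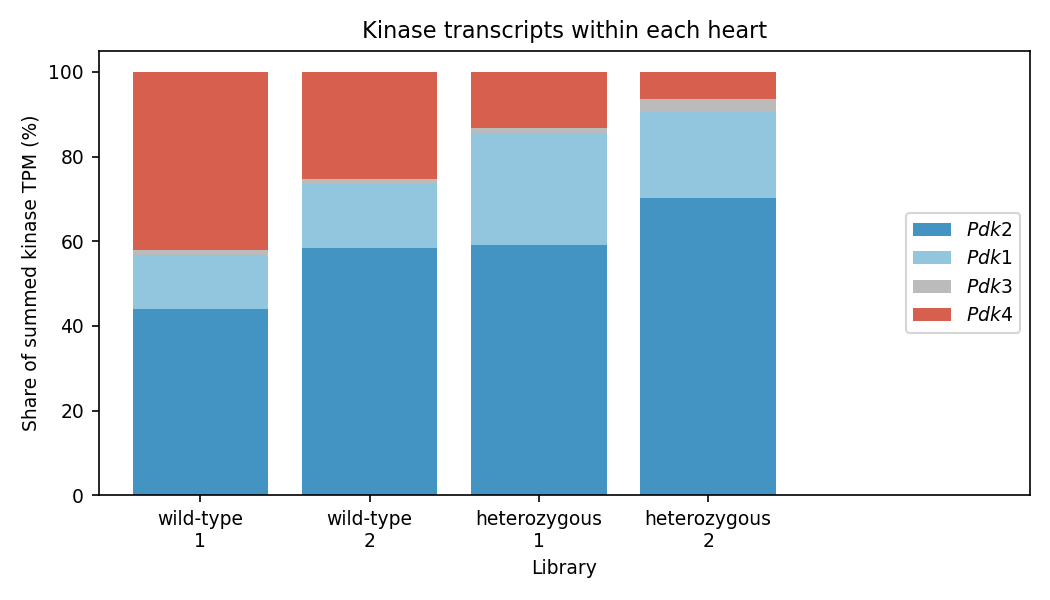
Share of each kinase gene in the summed TPM of *Pdk1*, *Pdk2*, *Pdk3* and *Pdk4*, in percent, as 1 stacked bar for each of the 4 libraries. The red *Pdk4* segment spans 42.1% and 25.2% in the wild-type hearts, compared with 13.3% and 6.47% in the heterozygous hearts, and the *Pdk3* segment is at most 2.89%.

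The 4 kinase genes together came to 32.9 and 30.9 scaled TPM in the wild-type hearts, compared with 17.9 and 20.7 in the heterozygous hearts. *Pdk4* made up 8.96 of the 12.6 scaled TPM between the group means, or 71.0%. That part rests on a wild-type mean of 2 unlike hearts, with *Pdk4* at 13.9 in wild-type 1 and 7.78 in wild-type 2. Without *Pdk4* the sums were 19.1, 23.1, 15.5 and 19.4, and the groups overlapped.

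*Pdp1* (ENSMUSG00000049225.14, chromosome 4, 11958184 to 11966452), the catalytic subunit of the calcium-sensitive phosphatase, was at 4.15 and 4.61 scaled TPM in the wild-type hearts, compared with 3.22 and 3.39 in the heterozygous hearts. Both heterozygous hearts were lower, by 1.33-fold in the means. The log2 fold change was -0.32 (95% interval -0.64 to 0.0015), and with a limma adjusted p of 0.412 it did not pass. *Pdpr* (ENSMUSG00000033624.10, chromosome 8, 111094630 to 111137074), the regulatory subunit of the phosphatase, was at 0.450, 0.460, 0.526 and 0.210 scaled TPM. These values overlapped and lay under the level needed for the test, and 169 of its exonic bases also belong to *9430091E24Rik* on the opposite strand. The other catalytic subunit gene, *Pdp2*, was listed at 0.92, 0.87, 0.29 and 0.42 TPM as deposited. Without the filter on low values its log2 fold change was -0.33 (limma adjusted p = 0.561).

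Kinase and phosphatase transcripts were also set against each other. The summed kinase TPM were 7.94 and 6.70 times the *Pdp1* TPM in the wild-type hearts, compared with 5.55 and 6.11 times in the heterozygous hearts. These groups did not overlap, although the gap between the nearest hearts, wild-type 2 and heterozygous 2, was small beside the spread of the wild-type hearts (7.32 ± 0.880 against 5.83 ± 0.398, SD, n = 2 each). Without wild-type 1 the difference of -1.49 became -0.868. Relative to *Pdha1*, the substrate of the kinases, the summed kinases were 0.852, 0.744, 0.608 and 0.646, and without *Pdk4* they were 0.494, 0.556, 0.527 and 0.604, which overlapped. *Pdp1* relative to *Pdha1* was 0.107, 0.111, 0.109 and 0.106, nearly level in all 4 hearts.

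*Pdha1* (ENSMUSG00000031299.10, chromosome X, 160122209 to 160138413), the E1 alpha chain, was at 38.6 and 41.6 scaled TPM in the wild-type hearts, compared with 29.4 and 32.1 in the heterozygous hearts. The groups did not overlap, and the log2 fold change was -0.37 (95% interval -0.77 to 0.018, limma adjusted p = 0.413). *Map3k15* shares 603 exonic bases with it on the opposite strand and was listed at only 0.14 to 0.39 TPM. *Pdhb* (ENSMUSG00000021748.9, chromosome 14, 8165996 to 8173025), the E1 beta chain, was the most abundant gene of the set, at 96.4, 104.3, 89.3 and 91.7 scaled TPM. Both heterozygous hearts were again lower, but by 1.11-fold in the means, and the log2 fold change of -0.15 had an interval from -0.56 to 0.27 and was -0.09 without wild-type 2. The processed pseudogene *Gm6123* matches it at 97.0% over 1079 bases and was listed at 0.16 to 0.39 TPM, so reads could be split between them.

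*Dlat* (ENSMUSG00000000168.9, chromosome 9, 50634633 to 50659780), the E2 core, was at 12.9, 15.7, 9.69 and 11.3 scaled TPM. Both heterozygous hearts were lower, 1.37-fold in the means, and the log2 fold change was -0.42 (95% interval -0.82 to -0.0077), with an unadjusted p of 0.047 and a limma adjusted p of 0.405. *Pdhx* (ENSMUSG00000010914.10, chromosome 2, 103021075 to 103073513), the E3-binding protein, was at 8.93, 8.68, 6.59 and 7.11 scaled TPM, again without overlap, with a log2 fold change of -0.32 (limma adjusted p = 0.413). *Dld* (ENSMUSG00000020664.10, chromosome 12, 31331277 to 31351453), the E3 enzyme that also serves the 2-oxoglutarate and branched-chain complexes, was at 26.7, 26.4, 28.3 and 23.7. Its groups overlapped, and its log2 fold change of -0.03 had an interval from -0.43 to 0.37 and changed to 0.03 when mitochondrial and numbered *Gm* genes were removed before scaling. Of the 5 subunits, 4 were thus separated with the heterozygous hearts lower, and the median log2 fold change was -0.32.

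**Figure D3:**
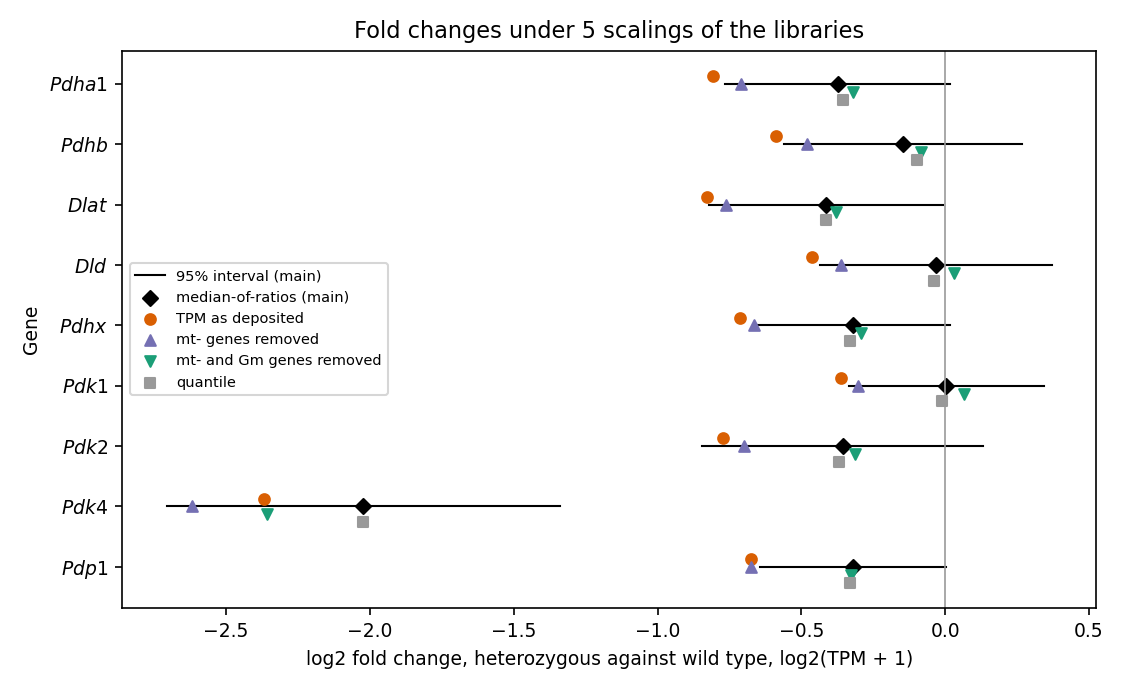
Log2 fold changes of the 9 tested genes, heterozygous against wild type, under 5 ways of scaling the libraries. Black diamonds with lines are the reported values with 95% intervals, and coloured points are the same fit on TPM scaled in the ways named. Circles, for TPM as deposited, lie to the left of the diamonds for all 9 genes, and *Pdk4* is the only gene whose line lies wholly below -1.

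The proportions of the subunits were read as ratios to *Pdha1* in the same library. *Pdhb* was 2.50 and 2.51 times *Pdha1* in the wild-type hearts, compared with 3.04 and 2.86 times in the heterozygous hearts, a gap wider than the spread in either genotype (2.50 ± 0.00988 and 2.95 ± 0.125, SD, n = 2 each). *Dld* was 0.691 and 0.634 times *Pdha1* in the wild-type hearts, compared with 0.964 and 0.740 times in the heterozygous hearts, higher in both but with the heterozygous hearts far apart. *Dlat*, at 0.334, 0.379, 0.330 and 0.351 times *Pdha1*, and *Pdhx*, at 0.231, 0.209, 0.224 and 0.222 times, overlapped between genotypes. The ratio to *Pdha1* was thus separated and higher in the heterozygous hearts for 2 of the 4 other subunits and separated and lower for 0. Over all tested genes the shares were 62.4% and 3.51%, *Pdha1* itself being lower in these hearts, so a higher ratio to it is not particular to *Pdhb* and *Dld*.

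**Figure D4:**
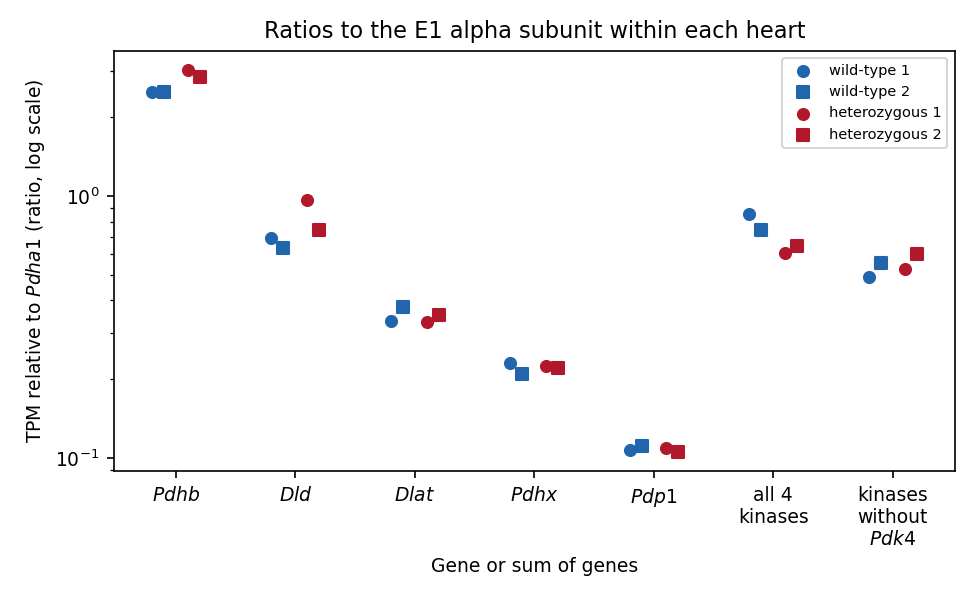
TPM of the other subunits, of *Pdp1* and of the summed kinase genes divided by the TPM of *Pdha1* in the same library, on a log axis. Colours and shapes are as in the plot of the members by library. *Pdhb* and *Dld* lie higher in both heterozygous hearts, the summed kinases lie lower (0.608 and 0.646 against 0.852 and 0.744), and the sum without *Pdk4* overlaps.

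In order of mean scaled TPM in the wild-type hearts, the genes ran *Pdhb*, *Pdha1*, *Dld*, *Pdk2*, *Dlat*, *Pdk4*, *Pdhx*, *Pdk1*, *Pdp1* and *Pdpr*. The values of the 2 wild-type hearts overlapped between the neighbours *Pdk2* and *Dlat*, *Dlat* and *Pdk4*, *Pdk4* and *Pdhx*, and *Pdk1* and *Pdp1*. In the heterozygous hearts *Pdk4*, at 1.86 ± 0.731, came after *Pdp1*, at 3.30 ± 0.121, and only *Pdpr* was lower.

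Genes around the complex were taken from lists of the pathway. None of their tested genes passed the limma threshold in either direction, so the counts below are of log2 fold changes and of groups that did not overlap. Over all tested genes 50.7% had a log2 fold change below 0, 23.3% were separated with the heterozygous hearts lower and 5.71% were lower at an unadjusted p under 0.05, and the lists are to be read against these shares. In the list for pyruvate supply and use, 11 of 12 tested genes had a log2 fold change below 0 and 7 were separated with the heterozygous hearts lower, with a median of -0.25 and 2 genes at an unadjusted p under 0.05. Citrate synthase (*Cs*), which takes up the acetyl-CoA the complex makes, was at 42.8, 50.9, 25.9 and 34.1 scaled TPM, with a log2 fold change of -0.63 (limma adjusted p = 0.346). The mitochondrial malic enzyme *Me3* followed at -0.45. Pyruvate carboxylase (*Pcx*), which sends pyruvate to oxaloacetate instead, was the one gene above 0, at 0.26 (1.59, 1.69, 2.02 and 2.29 scaled TPM).

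The sister complexes share the design and the E3 enzyme of pyruvate dehydrogenase. Of the 10 tested genes in their list, 9 had a log2 fold change below 0, 6 were separated with the heterozygous hearts lower and the median was -0.23. The list is wider than the subunits. It also holds the branched-chain kinase and phosphatase genes *Bckdk* and *Ppm1k* and the glycine cleavage genes *Amt* and *Gcsh*, all separated and lower. Among the subunits *Ogdh* and *Dbt* were separated and lower and *Bckdhb* separated and higher. *Dlst*, *Dhtkd1* and *Bckdha* overlapped between genotypes. *Ogdh*, the E1 component of the 2-oxoglutarate complex, was at 56.0, 60.7, 33.6 and 40.6 scaled TPM (-0.65, limma adjusted p = 0.335) and was the 1 gene at an unadjusted p under 0.05. *Dbt*, the E2 component of the branched-chain complex, stood at -0.38, whereas *Bckdhb*, the E1 beta chain of that complex, stood at 0.29. *Dbt* was at 1.09, 1.96, 0.64 and 0.62 TPM as deposited. It met the mean of at least 1 TPM through the wild-type hearts, and it is counted among the 6 separated genes.

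Genes for the lipoyl and thiamine cofactors gave a different picture. Of 7 tested, 3 were below 0 and 4 above, with a median of 0.036 and no gene at an unadjusted p under 0.05. The lowest were *Cbr4*, of mitochondrial fatty acid synthesis, at -0.36 and *Lias*, which makes the lipoyl group, at -0.30. The highest were *Mcat*, also of mitochondrial fatty acid synthesis, at 0.15 and the lipoyl transferase *Lipt1* at 0.11.

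Transcription factors and cofactors known to act on *Pdk4* were also read as a list. The log2 fold changes of the 13 tested lay between -0.23 and 0.08, with a median of -0.08, 10 of them below 0, 4 separated and lower (near the 23.3% of all tested genes), and 0 at an unadjusted p under 0.05 in limma. *Hif1a* (-0.23) and *Foxo4* (-0.22) were the lowest, and the retinoid X receptors *Rxrb* (0.08) and *Rxrg* (0.07) the highest. For genes at a few TPM the 1 added before the log makes the log2 fold change smaller, as for *Foxo4*, 1.25-fold lower in the means. *Ppargc1a*, 1 of the 4 separated, was at 1.09, 1.40, 0.81 and 0.82 TPM as deposited. It met the mean of at least 1 TPM through the wild-type hearts. Of the 19 genes in this list, 6 were too low to be tested. *Ppara* and *Foxo1* were not among the 13 tested genes, and the part of any regulator in the *Pdk4* difference was not tested.

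Genes induced by PPAR receptors or by fasting, a list that does not hold *Pdk4*, were mostly at lower values in the heterozygous hearts. Of 26 tested, 24 had a log2 fold change below 0, 23 were separated with the heterozygous hearts lower, 15 were at an unadjusted p under 0.05 in that direction, and the median was -0.49. These counts include *Angptl4* and *Acot2*, which were under 1 TPM in both heterozygous hearts. Both met the mean of at least 1 TPM through the wild-type hearts. The 2 genes above 0 were *Klf15*, a transcription factor of fasting metabolism, at 4.63, 4.22, 7.07 and 7.16 scaled TPM (0.58, limma adjusted p = 0.308) and the clock gene *Per1* (0.40, limma adjusted p = 0.346). The lowest were *Ucp3*, a mitochondrial carrier of muscle, at 37.9, 25.8, 12.0 and 9.82 scaled TPM (-1.45, limma adjusted p = 0.199) and *Txnip*, which limits glucose uptake, at 114.1, 40.3, 26.7 and 24.3 scaled TPM (-1.38, limma adjusted p = 0.346). Wild-type 1 alone held the high *Txnip* value.

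The tricarboxylic acid cycle, which burns the acetyl-CoA, had the lowest list median. All 18 tested genes had a log2 fold change below 0, 15 were separated with the heterozygous hearts lower, 13 were at an unadjusted p under 0.05, and the median was -0.53. *Sdhc*, a membrane anchor of succinate dehydrogenase, stood at -0.91 (limma adjusted p = 0.319) and *Idh3b*, of isocitrate dehydrogenase, at -0.71 (limma adjusted p = 0.335). *Cs* and *Ogdh* belong to this list as well.

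**Figure D5:**
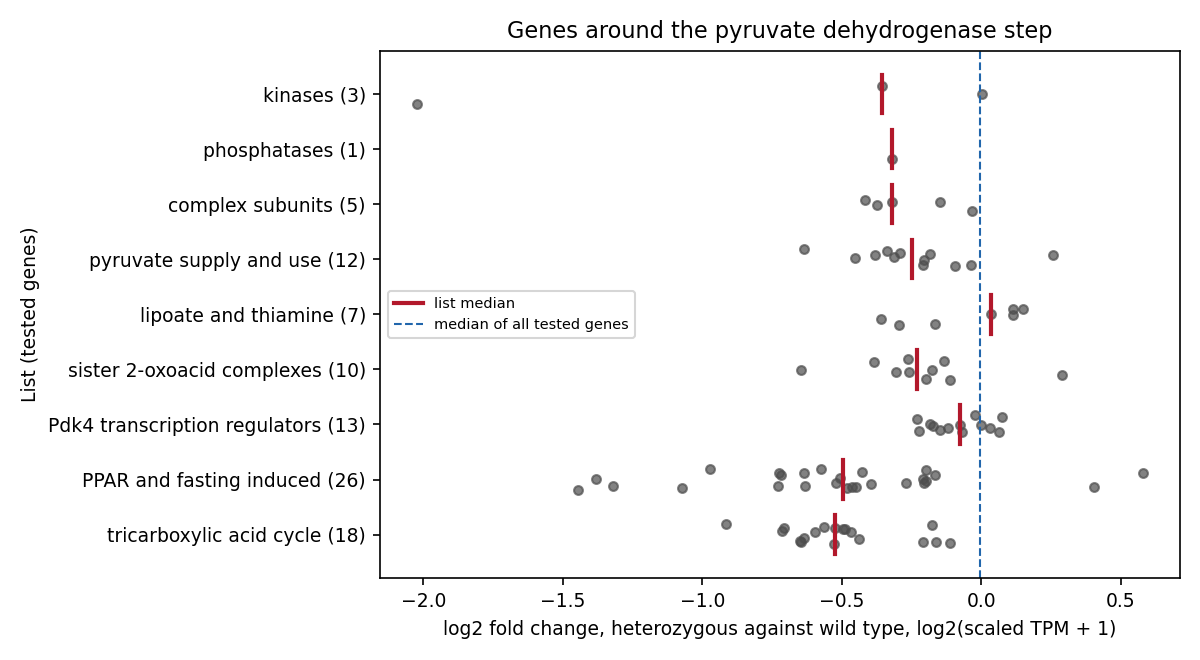
Log2 fold changes, heterozygous against wild type on the log2(scaled TPM + 1) scale, of the tested genes in each list, 1 point for each gene with a random vertical offset. Red bars are list medians and the dashed line is the median of all tested genes, -0.0047. The medians of the tricarboxylic acid cycle (-0.53) and of the PPAR and fasting genes (-0.49) lie lowest, and the single kinase point near -2 is *Pdk4*.

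The 5 tested genes whose pattern over the 4 libraries was nearest to that of *Pdk4*, by Euclidean distance of log2 values after removal of each gene's mean, were *Ucp3* (distance 0.627), *Angptl4* (0.742), *Txnip* (0.865), *Gm14325* (0.873) and a *Zc3h11a* gene model (ENSMUSG00000116275.1, 0.882). They were picked by this pattern, so its likeness to that of *Pdk4* is no separate result. *Angptl4*, a secreted inhibitor of lipoprotein lipase, was at 3.18, 1.75, 0.465 and 0.255 scaled TPM. *Angptl4*, *Gm14325* and the *Zc3h11a* model were under 1 TPM in both heterozygous hearts and passed the filter through the wild-type hearts. Like *Pdk4*, *Ucp3*, *Angptl4* and *Txnip* were higher in wild-type 1 than in wild-type 2, whereas *Gm14325* had its highest value in wild-type 2. The *Zc3h11a* model was listed at 0 in both heterozygous hearts.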

How the data were processed

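The data are gene expression values of 4 mouse hearts, grouped by the genotype and replicate number in the sample labels. The authors trimmed reads with Trim Galore, aligned them to mm10 with STAR, quantified genes with RSEM and deposited TPM with 2 decimals. The authors applied DESeq2 to read counts, which were not used here. Deposited TPM sum to the same total in each library, so a large transcript lowers all others. The library protocol in the methods is written for embryonic hearts.

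The deposited TPM were divided by a median-of-ratios factor over 9970 tested genes above 0 in all libraries, and log2(scaled TPM + 1) was computed from them. The limma model covered genes averaging at least 1 TPM over the 4 libraries (version 3.58.1 in R 4.3.3, functions lmFit and eBayes, the latter with trend), and its two-sided p values were adjusted by Benjamini-Hochberg over 10036 genes. Adjusted p values are from this model, or from the same limma fit under another setting where the sentence names one. Ratios used deposited TPM. Tables and figures were made with Python 3.11.15, pandas 2.3.3 and matplotlib 3.10.9, and gene copies were found with BLAST+ 2.17.0. Gene positions are those of the GENCODE annotation of GRCm38, and promoter bases those of RefSeq on GRCm38.p6. The fit was tested on simulated data.

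The members and lists were chosen with earlier results of these data known. Named are all members, the 2 largest rises and falls of each list by log2 fold change (fewer where a list had fewer), and the 5 genes nearest to *Pdk4*. The alternatives were pseudocounts of 0.1 and 5, no filter, a mean of at least 5 TPM, TPM as deposited, removal of mt- or of mt- and numbered *Gm* genes, quantile normalization, eBayes without trend or robust, other thresholds, a replicate block and each library left out.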

Additional observations from a re-analysis of the deposited data

How the results depend on the processing

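Over all tested genes, 2 were called lower and 0 higher by limma, with 1224 at an unadjusted p under 0.05 in either direction. The count called lower was 4 with a pseudocount of 0.1, 0 without the filter, 11 on unscaled deposited TPM and 12 after removal of mt- genes, and 2 were called higher under each of the last 2 settings and with the robust prior. With any 1 of the 4 libraries left out, 4 to 13 were called lower and 0 to 13 higher. *Pdk4* was called at -2.37 on unscaled deposited TPM and at -2.62 after removal of mt- genes. It was not called with quantile normalization (-2.02) or after removal of mt- and numbered *Gm* genes (-2.36). With pseudocounts of 0.1 and 5 it was at -2.47 and -1.18, not called with either. With 1 library left out *Pdk4* lay between -2.40 and -1.64. Its kinase share differed by -32.2 to -15.3 percentage points (-23.8 with all libraries), the kinase to *Pdp1* ratio by -2.11 to -0.868 (-1.49) and the kinase to *Pdha1* ratio by -0.225 to -0.117 (-0.171), each smallest without wild-type 1.

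The sign of *Pdk1* reversed with TPM as deposited (-0.36), after removal of mt- genes (-0.30) and with quantile normalization (-0.0098), and ranged from -0.073 to 0.081 with 1 library left out. *Dld* reversed to 0.030 after removal of mt- and numbered *Gm* genes and ranged from -0.15 to 0.091. *Pdk2*, *Pdp1*, *Pdha1*, *Pdhb*, *Dlat* and *Pdhx* kept their direction and stayed uncalled in the settings that could test them, though *Pdk2* ranged from -0.57 to -0.14 with 1 library left out.

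Replicate numbers are shared between genotypes, but the mice differ and only 2 pairs exist. Deviations of same-numbered libraries correlated at 0.101. A replicate block gave 7 genes called lower and 3 higher, and *Pdk4* passed at -2.02 (limma adjusted p = 0.0073). The block changed the call of no other member. Depth is unknown from TPM.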
